A study of Mus musculus with 2 samples.

Results

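Of 6588 mouse spleen cells within the quality limits, 141 were CD8 T cells that carried transcripts of Ccl5, Gzmk or Gzma (2.14%, exact binomial 95% interval 1.80 to 2.52). The cells were chosen by transcript counts alone. A cell had to hold at least 200 detected genes and at most 10% mitochondrial UMIs, where a UMI is the molecular tag that marks 1 captured transcript. It also had to hold at least 2 UMIs of the CD3 genes Cd3d, Cd3e and Cd3g together, at most 1 of the B cell genes Cd79a, Cd79b and Ms4a1, at least 2 of the CD8 co-receptor genes Cd8a and Cd8b1, none of Cd4, and at least 2 of Ccl5, Gzmk and Gzma together. The last of these sums is called the effector sum. Values of the genes that chose the cells are given as a description only.

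The study profiled spleen cells by droplet-based 3-prime RNA sequencing from a Wiskott-Aldrich syndrome model (WAS) and from wild-type (WT) mice, both aged 6 to 8 weeks, with 1 labelled sample each. The labels call the model mice WAS-KO and give no allele, strain or sex. The counts of 7524 barcodes came as 1 pooled matrix in which all barcodes are distinct and share 1 suffix, so no cell could be assigned to WAS or WT and the genotypes are not compared. Every value below therefore describes 1 pooled set of cells without replicates, no test across animals was possible, and the 95% intervals cover counting error only.

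Naive CD8 T cells recirculate through lymphoid tissue with the help of the chemokine receptor CCR7. After they meet antigen, effector and memory cells load cytotoxic granules with granzymes and perforin, secrete chemokines such as CCL5, and carry receptors for inflamed tissue such as CXCR3. Effector-memory cells have largely lost Ccr7, central memory cells keep it, and memory cells of both kinds carry CD44 and the interleukin-2 and interleukin-15 receptor chain encoded by Il2rb.

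The cells matched the label of effector-memory CD8 T cells only in part. Of the 5 marker genes named for the label, the chemokine gene Ccl5 was detected in 141 of 141 cells, the granule gene Nkg7 in 140, the chemokine receptor gene Cxcr3 in 96, the chemokine gene Ccl4 in 53 and the granzyme gene Gzmk in 47. Genes of naive and central memory cells were also common, with the transcription factor gene Lef1 in 103 cells and Ccr7 in 59. B-gated cells gave a background, though some of them may make these genes. In them Nkg7 was detected in 4.36%, Cxcr3 in 2.42% and Ccl4 in 2.21%, at a median depth of 5216 UMIs against 8916 UMIs in the 141 cells. The cells are therefore called Ccl5+ CD8 T cells, after the gene that all of them carried. A T cell receptor beta constant transcript (Trbc1 or Trbc2, which are near-identical copies) was found in all 141 and Trac, the alpha constant gene, in 135. A beta constant transcript was also found in 240 of 288 NK-gated cells, a group described below, where Trac was in 19. It was likewise found in all 26 T cells gated on the delta constant gene Trdc, where Trac was in 11. A beta constant transcript alone therefore does not set the 141 cells apart. A gamma delta receptor transcript was found in 12, of which 6 had at least 2 such UMIs.

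Ccl5 lies on chromosome 11 at 83525778 to 83530518 (minus strand), Gzmk on chromosome 13 at 113171608 to 113225908 (minus) and Gzma on chromosome 13 at 113093825 to 113100981 (minus), all protein-coding genes of GRCm38, the assembly that mm10 denotes. The promoters of 4 genes are shown because Gzmk and Gzma helped to choose the cells and Gzmb and the integrin gene Itga4 differed between cells with and without them. The gene positions are those of GENCODE vM21. The sequences are those of RefSeq (GRCm38.p6), run 5′ to 3′ on the gene's strand, and cover 250 bases before to 50 after the start that RefSeq annotates. For Gzmk that start is 113180965, whereas GENCODE also holds a longer transcript that begins at 113225908. The Gzmk window therefore lies inside the GENCODE gene. For Gzmb the RefSeq start is 56262334 and the GENCODE start 56262260, so the whole Gzmb window lies before the GENCODE gene. The windows are chr13:113180916-113181215 (minus) for Gzmk, chr13:113100932-113101231 (minus) for Gzma, chr14:56262285-56262584 (minus) for Gzmb and chr2:79255176-79255475 (plus) for Itga4. Capitals mark 2 short motifs read on both strands, GGTGTG, the core bound by T-box factors such as those of Tbx21 and Eomes, and TGTGGT, the core bound by RUNX factors.
Gzmk promoter: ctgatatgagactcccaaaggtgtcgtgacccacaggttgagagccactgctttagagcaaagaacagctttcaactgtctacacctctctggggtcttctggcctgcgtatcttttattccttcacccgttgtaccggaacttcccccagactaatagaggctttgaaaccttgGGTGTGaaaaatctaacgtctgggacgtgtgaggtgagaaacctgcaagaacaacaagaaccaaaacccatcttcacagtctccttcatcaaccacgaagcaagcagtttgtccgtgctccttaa
Gzma promoter: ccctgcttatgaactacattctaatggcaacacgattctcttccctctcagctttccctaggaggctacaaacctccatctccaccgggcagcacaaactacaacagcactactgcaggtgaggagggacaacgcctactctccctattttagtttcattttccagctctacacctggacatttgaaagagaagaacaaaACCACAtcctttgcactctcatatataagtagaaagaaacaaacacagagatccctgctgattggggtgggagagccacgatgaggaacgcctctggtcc
Gzmb promoter: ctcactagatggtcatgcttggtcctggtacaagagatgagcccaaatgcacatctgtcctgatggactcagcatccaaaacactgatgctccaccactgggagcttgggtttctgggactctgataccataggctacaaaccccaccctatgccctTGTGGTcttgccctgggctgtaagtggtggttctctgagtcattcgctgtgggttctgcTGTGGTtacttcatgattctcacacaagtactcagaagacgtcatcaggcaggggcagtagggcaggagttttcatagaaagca
Itga4 promoter: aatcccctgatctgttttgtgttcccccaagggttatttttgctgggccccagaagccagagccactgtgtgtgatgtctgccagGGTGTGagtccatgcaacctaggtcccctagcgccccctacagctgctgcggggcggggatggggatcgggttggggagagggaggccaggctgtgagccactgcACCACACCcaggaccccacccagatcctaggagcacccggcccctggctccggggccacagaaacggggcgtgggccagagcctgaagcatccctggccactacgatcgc
Gzmk held 1 T-box core, Gzma 1 RUNX core, Gzmb 2 RUNX cores and Itga4 2 T-box cores and 1 RUNX core, of which a T-box and the RUNX core share bases in the run ACCACACC. Among 32851 promoter windows of the same length, 19.0% held GGTGTG and 16.8% held TGTGGT on either strand, so a match is a description of the letters and not a bound site.

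Ccl5 transcripts ranged widely among the 141 cells. The lowest count was 1, the median 55 and the highest 339 UMIs per cell. The effector sum was 2 in 18 cells, 3 to 5 in 15, 6 to 20 in 19, 21 to 100 in 38 and over 100 in 51 cells. Gzmk and Gzma, the 2 granzyme genes of the rule, were found together in 23 cells, Gzmk alone in 24, Gzma alone in 21 and neither in 73. Of the 51 cells with a sum over 100, 43 had a granzyme UMI.

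**Figure D1:**
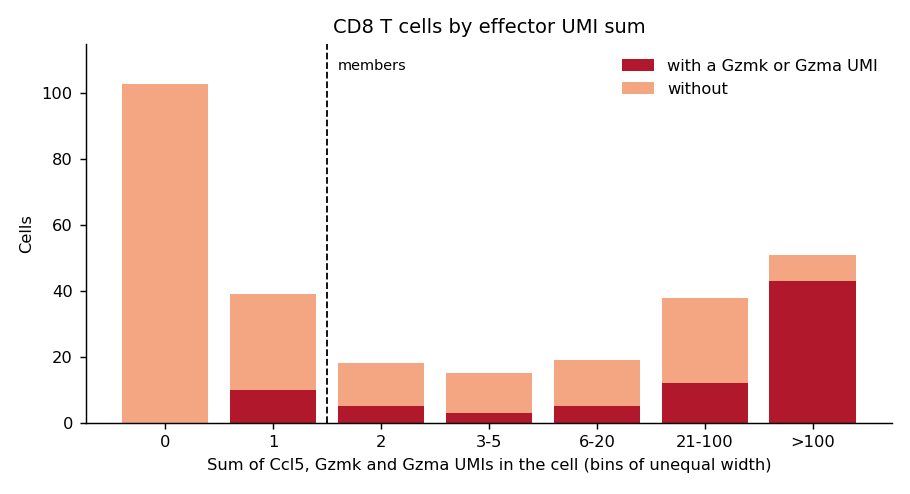
Number of CD8 T cells (y axis) by the sum of Ccl5, Gzmk and Gzma UMIs in the cell (x axis, bins of unequal width), with cells that had a Gzmk or Gzma UMI in dark red. The dashed line marks the limit of 2 UMIs: 141 cells lie right of it, 39 had a sum of 1 and 103 a sum of 0.

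These cells made up 141 of 283 CD8 T cells that met every other condition (49.8%, 43.8 to 55.8). Another 39 had an effector sum of 1 (13.8%) and 103 had a sum of 0 (36.4%). Of the 39, 29 had a Ccl5 UMI and no granzyme UMI, and they are not counted as Ccl5+ cells here. The 103 cells with none of the 3 transcripts, called effector-free CD8 T cells, serve as the first comparison. Effector UMIs were also counted outside T cells: of 2939 B-gated cells, 163 had an effector sum of at least 2 (5.55%, 4.75 to 6.44). Free RNA in the droplets can place a transcript in a cell that does not make it. The highest Ccl5 count of a B-gated cell was 159 UMIs, and 51 B-gated cells were called doublets. The source of these UMIs was not tested. The median depth of effector-free CD8 T cells was 7881 UMIs. At 1000 UMIs per cell, 35 of 96 cells passing the CD8 conditions had an effector sum of at least 2 (36.5%).

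The 18 cells just inside the limit, with a sum of 2, lay between the groups in some genes and not in others. Their level in UMIs per 1000000 UMIs (CPM) of Cxcr3 was 82.3, against 19.9 in cells with a sum of 1 and 19.3 in cells with a sum of 0. Ly6c2, which encodes the Ly6C surface protein of memory CD8 T cells, stood at 1208 CPM in cells with a sum of 2, 558 with a sum of 1 and 464 with a sum of 0. Lef1 stood at 468, 612 and 647 CPM in the same order. Ccl4 had no UMI in any of these 3 groups, and Itga4 stood at 170, 191 and 218 CPM, lowest in the cells just inside the limit and below the 371 CPM of all Ccl5+ cells.

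Compared with effector-free CD8 T cells, Ccl5+ CD8 T cells had more transcripts of granule, chemokine, lectin-like receptor and S100 genes and fewer of naive T cell genes. Of 4872 genes with at least 50 UMIs over both groups, 218 were at least 2-fold higher (4.47%) and 46 at least 2-fold lower (0.944%), and the median gene had a log2 ratio of 0.06. Without the 17 Ccl5+ and 7 effector-free cells that had 2 or more UMIs of the cell cycle genes Mki67, Top2a and Birc5, the numbers were 157 and 40. Because the effector sum separated the groups, genes that go along with Ccl5 had to differ, and these values describe how the groups differ.

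**Figure D2:**
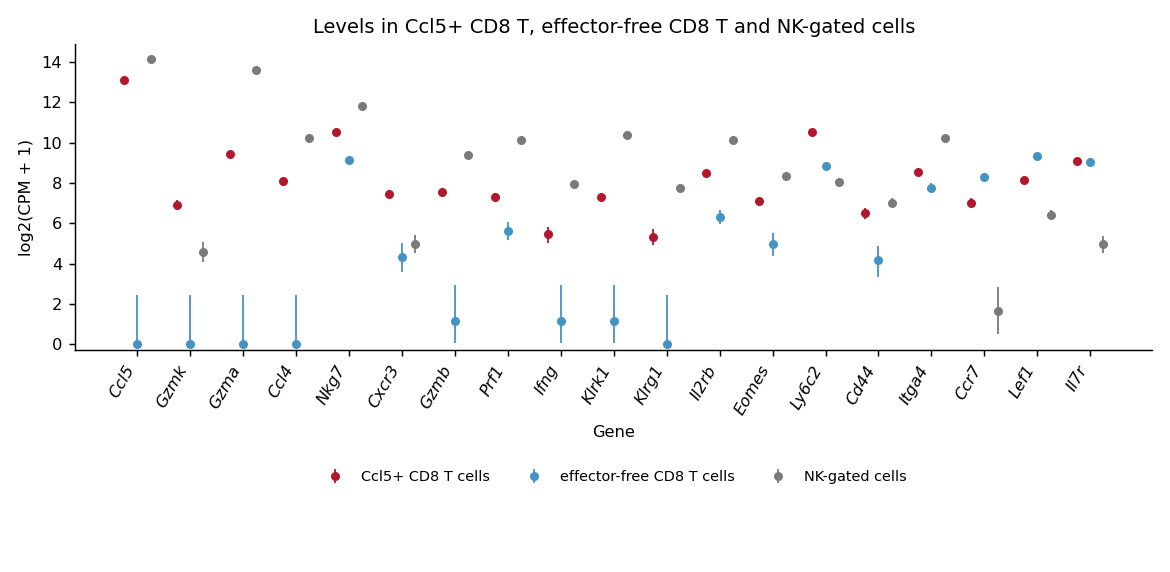
Level of 19 genes on a log2 scale of CPM with 1 added (y axis) in 141 Ccl5+ CD8 T cells (red), 103 effector-free CD8 T cells (blue) and 288 NK-gated cells (grey), with exact Poisson 95% intervals. Ccl5, Gzmk and Gzma chose the cells. Il7r was at 547 CPM in Ccl5+ and 518 CPM in effector-free CD8 T cells, whereas Il2rb stood at 361 and 78.3 CPM.

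Cytotoxic granule genes were higher as a group: 8 of 12 measured genes were at least 2-fold higher and none at least 2-fold lower, with a median log2 ratio of 1.37. Gzmb, the granzyme that triggers caspases in target cells, stood at 187 CPM in Ccl5+ and 1.21 CPM in effector-free cells (log2 ratio 7.28, 4.78 to 12.59, on 237 and 1 UMIs). Its transcripts were found in 43 Ccl5+ cells, at up to 28 UMIs per cell. Gzmm, another granzyme gene, stood at 119 and 2.41 CPM (5.63, 3.75 to 8.69). Perforin, Prf1, which opens the target membrane, stood at 156 and 48.2 CPM (1.70, 1.20 to 2.22). Serpinb9, an inhibitor that shields the killer cell from granzyme B, had a log2 ratio of 2.11 (1.22 to 3.12). Nkg7 was abundant on both sides, at 1499 CPM in Ccl5+ and 558 CPM in effector-free cells (1.43, 1.28 to 1.58). The granule proteoglycan gene Srgn, at 487 and 396 CPM, and the granzyme-activating protease gene Ctsc, at 70.2 and 84.4 CPM, lay within 2-fold.

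Of the chemokine and cytokine genes, 3 of 7 measured were at least 2-fold higher. Ccl4, a chemokine that attracts T cells and monocytes, had 350 UMIs in Ccl5+ cells (276 CPM) and none in effector-free cells, which makes it at least 6.25 higher on the log2 scale if a count of 0 allows 3 UMIs over the group. Ccl4 was concentrated: 15 cells held 77.4% of its UMIs, and 1 cell held 96. Ccl3, a closely related chemokine gene, stood at 64.7 and 1.21 CPM (5.75, 3.23 to 11.07, or 4.56 without 1 cell that held 46 of its 82 UMIs), and Ifng, which encodes interferon gamma, at 42.6 and 1.21 CPM (5.14, 2.60 to 10.47). Ifng was found in 26 of the 141 cells. Ltb, the lymphotoxin beta gene, was abundant on both sides, at 678 and 797 CPM (-0.23).

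Homing and adhesion genes were split, with 7 of 20 at least 2-fold higher and 3 at least 2-fold lower. The receptors for inflamed tissue Ccr2 (110 CPM in Ccl5+ and 1.21 CPM in effector-free cells, log2 ratio 6.52) and Cxcr3 (176 and 19.3 CPM, 3.19) were higher, as was the fractalkine receptor gene Cx3cr1, with 68.6 CPM and no UMI in effector-free cells (at least 4.25). The integrin beta 1 gene Itgb1 stood at 300 and 51.8 CPM (2.53) and the hyaluronan receptor gene Cd44 at 89.1 and 16.9 CPM (2.40). Lower were Ccr9, the gut-homing receptor, at 26.8 and 242 CPM (-3.18, -3.74 to -2.65), Itgae, the CD103 integrin chain, at 10.3 and 65.1 CPM (-2.67), and Ccr7 at 129 and 313 CPM (-1.28). S1pr1, the receptor for egress into blood, lay within 2-fold at 256 and 299 CPM. Ly6c2, which was on none of the gene lists, stood at 1497 and 464 CPM (1.69, 1.53 to 1.85).

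Receptors best known from NK cells were higher in 7 of 12 measured genes and lower in none, with a median of 2.65, the largest of the lists in this comparison. The median was 1.63 without the cells with cell cycle UMIs and 0.80 among genes with at least 200 UMIs. Klrk1, the activating receptor NKG2D, stood at 158 CPM in Ccl5+ and 1.21 CPM in effector-free cells (7.03, 4.54 to 12.34). Klre1 (6.31), Klrc1 (5.13) and Klrc2 (at least 4.77) encode further lectin-like receptors, and Klrc1 and Klrc2 are similar enough that their counts may not be fully separable. Slamf7 had 150 UMIs in 75 of the 141 cells and none in effector-free cells (at least 5.03). Klrd1, the CD94 partner chain of the NKG2 receptors, lay within 2-fold at 378 and 229 CPM (0.72). The NK-defining gene Ncr1 had 2 UMIs in all Ccl5+ cells and Tyrobp, the adaptor of NK receptors, stood at 31.5 and 32.5 CPM. In each group 1 cell held 11 Tyrobp UMIs, of 40 in Ccl5+ and 27 in effector-free cells. Without that effector-free cell the level of its group was 19.5 CPM and the log2 ratio 0.70. The 6 NK markers together had 341 CPM in Ccl5+, 32.5 CPM in effector-free and 4376 CPM in NK-gated cells. Without Eomes and Gzmb, which CD8 T cells also express, the sums were 18.9, 1.21 and 3368 CPM, with 12 of the 24 UMIs of the Ccl5+ cells in 1 cell, and their part in the result was not tested.

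**Figure D3:**
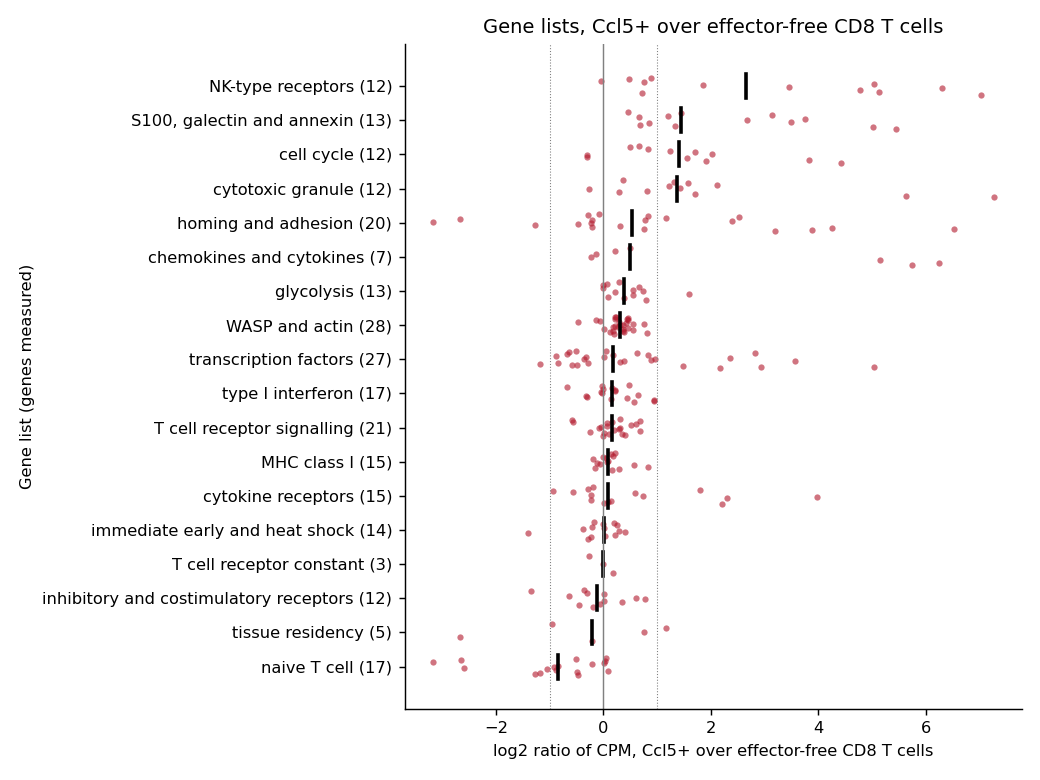
Log2 ratio of CPM in Ccl5+ over effector-free CD8 T cells (x axis) for each measured gene of 18 lists (y axis, number measured in brackets), with black bars at list medians and dotted lines at 2-fold. NK-type receptors have the highest median (2.65) and naive T cell genes the lowest (-0.86). Of the 26 NK-type receptor genes 12 were measured, several of them only through their UMIs in Ccl5+ cells.

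Among cytokine receptors, 4 of 15 measured genes were at least 2-fold higher. Il18rap and Il18r1, the 2 chains of the interleukin-18 receptor, stood at 114 and 7.23 CPM (3.98) and at 124 and 25.3 CPM (2.29). Il2rb stood at 361 CPM in Ccl5+ and 78.3 CPM in effector-free cells (2.21, 1.83 to 2.60). The interleukin-10 receptor gene Il10ra had a ratio of 1.79. The shared receptor chain gene Il2rg, at 274 and 271 CPM, and the interleukin-7 receptor gene Il7r, at 547 and 518 CPM, did not differ beyond their counting intervals.

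Among transcription factors, 7 of 27 measured genes were at least 2-fold higher and 1 at least 2-fold lower. The T-box genes of the cytotoxic programme were among the higher ones, with Eomes at 135 CPM in Ccl5+ and 30.1 CPM in effector-free cells (2.16) and Tbx21 at 55.2 and 7.23 CPM (2.93). Zeb2, a repressor linked to terminal effector cells, stood at 118 and 3.62 CPM (5.03, 3.46 to 7.33). Bhlhe40 (3.56), the nuclear receptor gene Rora (2.83), Hopx (2.36) and Id2 (1.47) completed the group. Lef1, a factor of naive and early memory cells, was the lower one, at 284 and 647 CPM (-1.19). Its partner Tcf7, at 357 and 500 CPM (-0.49), and Runx3, a factor of the CD8 lineage, at 286 and 233 CPM (0.30), lay within 2-fold.

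The naive T cell list was lower: 6 of 17 measured genes were at least 2-fold lower and none at least 2-fold higher, with a median of -0.86. Besides Ccr9, Ccr7 and Lef1, these were Rgcc (15.8 CPM in Ccl5+ and 98.8 CPM in effector-free cells, -2.65), Igfbp4 (34.7 and 210 CPM, -2.60) and Dapl1 (217 and 451 CPM, -1.06, or -0.96 without the cells that had gamma delta receptor UMIs and -0.98 without the effector-free cell with most Dapl1 UMIs). Outside the lists, Ramp1, a receptor-modifying protein, was the lowest of the genes taken by ratio, at 6.31 and 81.9 CPM (-3.70, -4.97 to -2.64). Ift80, Timp2, Lztfl1, Trat1, Rflnb, Tdrp and Ssbp2 followed, with ratios between -2.11 and -1.61. At a mitochondrial maximum of 5%, which left 74 Ccl5+ and 59 effector-free cells, the Rflnb ratio was -0.95.

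The S100, galectin and annexin list was higher in 9 of 13 measured genes. S100a4 stood at 263 CPM in Ccl5+ and 6.03 CPM in effector-free cells (5.45), S100a6 at 782 and 24.1 CPM (5.02), Lgals1 at 818 and 72.3 CPM (3.50), Anxa2 at 129 and 9.64 CPM (3.75) and the large scaffold gene Ahnak at 523 and 59.1 CPM (3.15). The list's median was 1.45, or 0.97 without the cells with cell cycle UMIs. The cell cycle list was higher in 7 of 12, but few cells carried it. Mki67 stood at 77.3 and 3.62 CPM (4.42, or 3.56 without the cell that held 45 of its 98 UMIs), and 15 cells held 99.0% of its UMIs. Without cells that had 2 or more UMIs of Mki67, Top2a and Birc5, the list's median was 0.35, against 1.40 with them.

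Several lists stayed within 2-fold, as did 4608 of all 4872 genes. Counts of 0 in lists of this size lie near that share and are a description only. None of 21 T cell receptor signalling genes, none of 28 WASP and actin genes, none of 17 type I interferon genes and none of 15 MHC class I genes was past 2-fold in either direction, with medians of 0.16, 0.30, 0.17 and 0.08. Was, the gene altered in the model, stood at 66.2 CPM in Ccl5+, 57.8 CPM in effector-free and 98.8 CPM in NK-gated cells. These levels check no label, since the cells of the WAS mouse are not identified. In the inhibitory and costimulatory list, 0 of 12 were higher and Pecam1 was lower (-1.36). The exhaustion-linked genes Pdcd1, Lag3, Havcr2 and Tigit were under the 50-UMI minimum, at 7.10, 20.5, 3.94 and 0.789 CPM in Ccl5+ cells. Of the markers of other cell types, B cell markers summed to 187 CPM in Ccl5+ and 187 CPM in effector-free cells, macrophage and monocyte markers to 116 and 92.8 CPM and erythroid markers to 1791 and 1268 CPM, where 1 Ccl5+ cell held 551 of the 2271 erythroid UMIs (1364 CPM without it). The 3 regulatory T cell markers summed to 62.3 and 34.9 CPM, all of it Ikzf2 in Ccl5+ cells, in which Foxp3 and Il2ra were at 0. The 3 markers of type 1 dendritic cells summed to 22.1 CPM in Ccl5+ cells, all of it Itgax, and to 0 in effector-free cells, and Xcr1 and Clec9a were at 0 in Ccl5+ cells. The 9 markers of gamma delta and innate-like T cells summed to 30.8 and 20.5 CPM, with 4 of 9 detected in Ccl5+ cells. The part of these markers in the differences was not tested.

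The Ccl5+ cells fell into 68 with a Gzmk or Gzma UMI, called granzyme-positive, and 73 without, called Ccl5-only. Because Gzmk and Gzma UMIs separated these groups, genes that go along with them had to differ. The values below describe how the groups differ. Several effector genes, among them Gzmb, Klrg1 and Zeb2, and the integrin gene Itga4 were at least 2-fold higher in granzyme-positive cells, and Il7r and Satb1 at least 2-fold lower. Prf1 was found in 48 granzyme-positive and 46 Ccl5-only cells, groups of unequal depth. Its level was at least 2-fold higher in granzyme-positive cells (log2 ratio 1.16, or 1.11 without the cell with most Prf1 UMIs). Gzmm was found in 22 and 25 cells and lay within 2-fold. Cd44, Il2rb and Ly6c2 lay within 2-fold. Of 3419 genes with at least 50 UMIs over both, 130 were at least 2-fold higher in granzyme-positive cells (3.8%) and 39 at least 2-fold lower (1.14%), with the median gene at 0.21. With median-of-ratios size factors, which set the median gene to 0, the numbers were 73 and 78. The median depth was 6703.5 UMIs in granzyme-positive and 10280 UMIs in Ccl5-only cells, and 14 and 3 cells had 2 or more cell cycle UMIs. Without these cells, 87 genes were higher and 36 lower.

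Itga4 encodes the integrin alpha 4 chain of VLA-4, which binds VCAM-1 on inflamed vessels. In granzyme-positive cells its count per cell had a lowest value of 0, a median of 4 and a highest of 18 UMIs, against 0, 0 and 12 UMIs in Ccl5-only cells. It stood at 715 and 125 CPM, a log2 ratio of 2.52 (2.19 to 2.87). Il7r, the receptor gene for the survival cytokine interleukin-7, was arranged the other way, with 0, 0 and 13 UMIs per granzyme-positive cell and 0, 7 and 20 UMIs per Ccl5-only cell. Its level was 272 CPM in granzyme-positive and 744 CPM in Ccl5-only cells (-1.45, -1.73 to -1.19), with effector-free cells at 518 CPM. The ranges of both genes overlapped between the groups.

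The 2 genes also divided the cells individually, a pair chosen after the values were seen. Of the 68 granzyme-positive cells, 35 had Itga4 without Il7r, 12 had Il7r without Itga4, 17 had both and 4 had neither. Of the 73 Ccl5-only cells, 7 had Itga4 without Il7r, 46 had Il7r without Itga4, 19 had both and 1 had neither. Over all 141 cells, Itga4 was within 2-fold of the effector-free level (371 and 218 CPM, 0.77, 0.52 to 1.02), with the granzyme-positive cells above it and the Ccl5-only cells below it.

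Effector genes were among the highest ratios of granzyme-positive over Ccl5-only cells. Klrg1, an inhibitory receptor of terminal effector cells, was found in 22 granzyme-positive cells and 1 Ccl5-only cell (92.5 and 1.35 CPM, 6.09, 3.55 to 11.43). Gzmb, which was not counted in the split but can go along with Gzmk and Gzma, was found in 37 and 6 cells (423 and 17.6 CPM, 4.58, 3.78 to 5.52). Cx3cr1 (155 and 6.77 CPM, 4.51), Ccl3 (145 and 6.77 CPM, 4.42, or 3.12 without 1 cell that held 46 of the group's 77 UMIs), Zeb2 (258 and 17.6 CPM, 3.88), Ifng (92.5 and 6.77 CPM, 3.77), the galectin gene Lgals3 (196 and 17.6 CPM, 3.48) and Ccl4 (575 and 61.0 CPM, 3.24) complete the 8 highest. In the lists, 5 of 11 granule genes, 6 of 11 NK-type receptors, 10 of 13 S100, galectin and annexin genes and 7 of 24 transcription factors were at least 2-fold higher. Of the Ccl5-only cells, 1 held 163 of that group's S100a6 UMIs.

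Genes of naive and long-lived cells were lower in granzyme-positive than in Ccl5-only cells, with 6 of 13 measured naive list genes at least 2-fold lower and none higher. Besides Il7r, the chromatin organiser gene Satb1 stood at 149 and 484 CPM (-1.70), Dapl1 at 64.2 and 327 CPM (-2.35) and Nsg2 at 39.6 and 121 CPM (-1.61). Cd69, an early activation and retention gene, was lower as well, at 143 and 339 CPM (-1.24, or -0.70 at a mitochondrial maximum of 5%). Ttc28 (-2.69), Ikzf2 (22.6 and 90.8 CPM), the pro-apoptotic gene Bbc3 (-1.98), Itm2a (-1.97), Fam46c (-1.91), Epb41l4aos (-1.84) and Rflnb (-1.79) were the other genes taken by ratio. The 12 Ikzf2 UMIs of the granzyme-positive cells lay in 1.47% of them, which is 1 cell, and without the 12 cells that had gamma delta receptor UMIs the gene was under the 50-UMI minimum. Xcl1, a chemokine for cross-presenting dendritic cells, was under the 50-UMI minimum, with 2 UMIs in 2 granzyme-positive and 43 UMIs in 24 Ccl5-only cells (-3.95, -7.04 to -2.01).

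**Figure D4:**
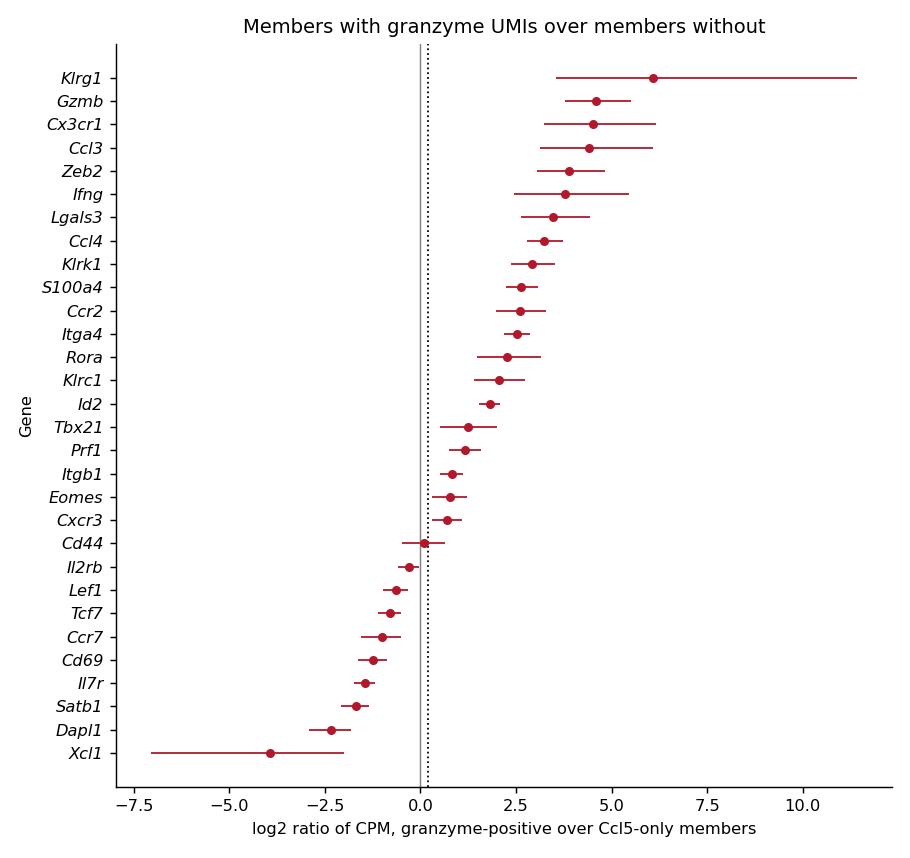
Log2 ratio of CPM in granzyme-positive over Ccl5-only cells (x axis) for 30 genes (y axis), with exact 95% counting intervals. Members are the 141 Ccl5+ CD8 T cells. The solid line is at 0 and the dotted line at 0.21, the median of all 3419 genes. Klrg1 stands highest at 6.09, on 49 and 1 UMIs, and Xcl1 lowest at -3.95.

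Other memory genes lay within 2-fold between granzyme-positive and Ccl5-only cells, some of them with a counting interval that left out 0. Cd44 stood at 92.5 and 86.7 CPM (0.09, -0.47 to 0.65), Il18r1 at 119 and 127 CPM (-0.10, -0.58 to 0.38) and Il2rb at 317 and 393 CPM (-0.31, -0.59 to -0.03). Cxcr3 stood at 226 and 140 CPM (0.70, 0.31 to 1.09), Eomes at 177 and 104 CPM (0.77, 0.32 to 1.22) and Ly6c2 at 1760 and 1307 CPM (0.43, 0.30 to 0.56). Related genes were past 2-fold. Il18rap, the other chain of the interleukin-18 receptor, had a ratio of 1.32 and the T-box gene Tbx21 one of 1.24. Without the cell with most UMIs of the gene, these were 1.22 and 1.08. Gzmm stood at 98.1 and 134 CPM (-0.45, -0.96 to 0.05). The WASP and actin list had a median of 0.50, with 1 of 27 genes, the actin gene Actg1, past 2-fold (2615 and 1275 CPM, 1.04, or 0.83 with size factors and 0.96 without the cell with most Actg1 UMIs). The 6 NK markers summed to 630 and 133 CPM, or 30.2 and 10.8 CPM without Eomes and Gzmb. Erythroid markers summed to 2409 and 1347 CPM, but 1 granzyme-positive cell held 551 of that group's 1277 erythroid UMIs, and the sum was 1389 CPM without it. The part of these markers in these differences was not tested.

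Within the 73 Ccl5-only cells, some genes were higher in cells with more Ccl5 and others were not, in groups of cells chosen after the data were seen. With 2 to 5, 6 to 20 and over 20 Ccl5 UMIs (25, 14 and 34 cells), Il2rb stood at 181, 457 and 542 CPM. Xcl1 stood at 22.2, 47.7 and 93.4 CPM, on 6, 7 and 30 UMIs. Klrc2 stood at 11.1, 34.1 and 90.3 CPM, on 3, 5 and 29 UMIs. For Xcl1 and Klrc2 the counting intervals of the lower 2 steps overlapped. Lef1 stood at 459, 375 and 212 CPM in the same order. Il7r, at 629, 688 and 866 CPM, and Itga4, at 144, 123 and 109 CPM, stayed within 2-fold across these steps. When only the 48 Ccl5-only cells with at least 6 Ccl5 UMIs were compared with the granzyme-positive cells, the Itga4 ratio was 2.66, whereas that of Dapl1 was -0.58, no longer past 2-fold.

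Shares of cells with a transcript depend on depth, so each cell was thinned to 1000 UMIs. At that depth Itga4 was found in 36 of 68 granzyme-positive cells (52.9%), 7 of 73 Ccl5-only cells (9.59%) and 24 of 103 effector-free cells (23.3%). Cxcr3 was found in 14 granzyme-positive (20.6%), 16 Ccl5-only (21.9%) and 1 effector-free cell (0.971%), and Il2rb in 26.5%, 30.1% and 3.88%. B-gated cells gave a background for these genes apart from Itga4, though some of them may make Cxcr3 or Il2rb. Their shares were 0.342% for Cxcr3 and 0.957% for Il2rb. Klrg1 was found in 10 of 68 granzyme-positive cells (14.7%), 0 of 73 Ccl5-only cells and 0.103% of B-gated cells. A count of 0 at this depth limits the share of cells with a thinned UMI to 4.11% and not that of cells expressing the gene, and 1 of the 73 cells had a Klrg1 UMI before thinning. Before thinning, Cxcr3 was found in 68.1% of all Ccl5+, 11.7% of effector-free and 2.42% of B-gated cells. Only the B-gated and NK-gated groups lost shallower cells to thinning, 13 and 1.

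**Figure D5:**
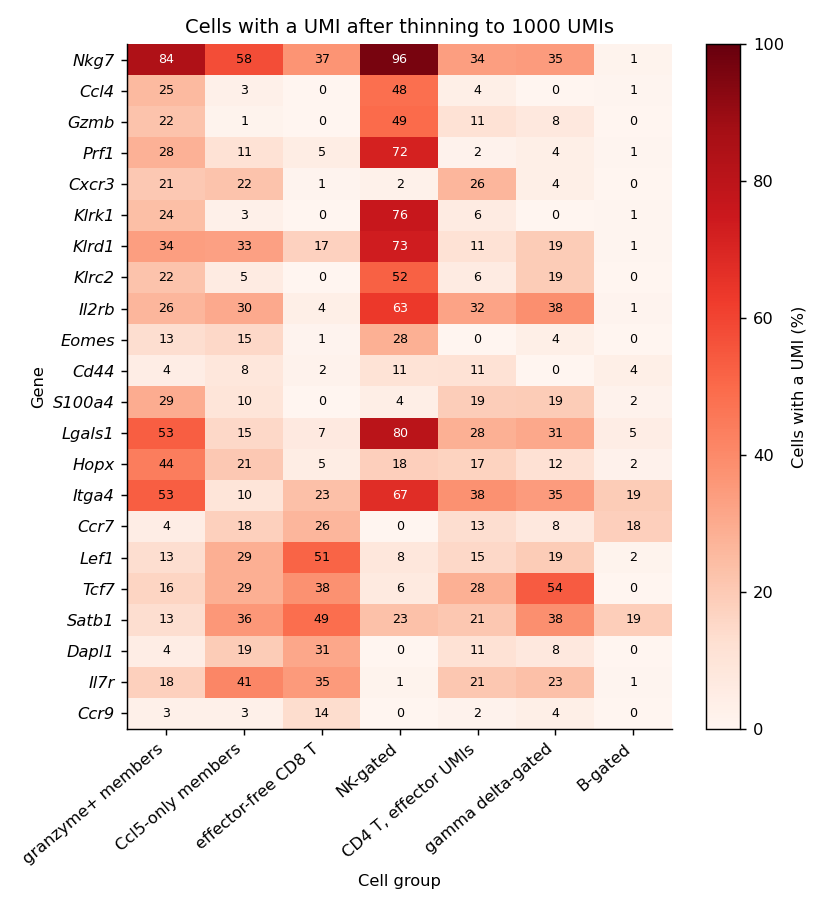
Percent of cells with a UMI of each gene (rows) after thinning to 1000 UMIs, in 68 granzyme-positive and 73 Ccl5-only cells (together the 141 members) and 5 other groups of spleen cells (columns). Cxcr3 is found in 21.3% of all 141 cells, 2.44% of NK-gated and 26.4% of CD4 T cells with effector UMIs, while Itga4 also reaches 19.4% in B-gated cells.

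Set beside NK-gated cells, the 288 cells with NK receptor transcripts and at most 1 CD3 UMI, the Ccl5+ CD8 T cells had most granule genes at lower levels and T cell genes at higher ones. CD3 and NK receptor counts separated these groups, so T cell and NK receptor genes had to differ. Of 6052 genes with at least 50 UMIs over both, 243 were at least 2-fold higher (4.02%) and 653 at least 2-fold lower (10.8%). The median gene was at -0.28, and with size factors that set it to 0 the numbers were 439 and 431. Erythroid markers summed to 1791 CPM in Ccl5+ and 14891 CPM in NK-gated cells, of which 1 cell held 11052 of 21241 UMIs (7225 CPM without it), and their part in that shift was not tested.

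Of the granule genes, 7 of 13 measured were at least 2-fold lower in Ccl5+ than in NK-gated cells and 2 were higher. Gzma stood at 698 and 12354 CPM, Prf1 at 156 and 1134 CPM (-2.86) and Gzmb at 187 and 680 CPM (-1.86). The other way round were Gzmm, at 119 and 16.8 CPM (2.82, 2.20 to 3.51), and Tnfsf10, the death ligand TRAIL, at 33.1 and 12.6 CPM (1.39). Gzmk, a gene of the rule, stood at 121 and 23.1 CPM. The NK-type receptors were lower in 18 of 22, among them Klri2 (-8.59) and the Ly49 genes Klra4 (-8.29) and Klra8 (-7.28), whose near-identical copies make single-gene counts uncertain. Cma1 (-7.65), Tnfsf12 (-7.08), Tyrobp (-6.73), Aoah (-6.57) and Klrb1a (-6.42) were the other lowest.

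T cell genes led the higher side in Ccl5+ cells against NK-gated cells. Dapl1 stood at 217 and 0.701 CPM (8.27), the T cell surface genes Cd6 at 110 and 0.701 CPM (7.30) and Cd5 at 141 and 1.40 CPM (6.65), and Themis, a thymic selection adaptor, at 185 and 1.40 CPM (7.04). Nsg2 (6.95), Klk8 (6.20), Ccr7 (5.94) and Fam169b (5.64) complete the 8 highest. Among homing genes, Cxcr6 stood at 78.9 and 3.51 CPM (4.49), S1pr1 at 256 and 30.1 CPM (3.09) and Cxcr3 at 176 and 30.8 CPM (2.51), whereas Itga4 (-1.67) and Ccr2 (-1.59) were lower. Type I interferon genes were at least 2-fold higher in 11 of 16, with a median of 1.55. Ifi27l2a stood at 987 and 104 CPM (3.25) and Ifit3 at 99.4 and 12.6 CPM (2.98). Immediate early and heat shock genes were lower in 8 of 17, with a median of -0.93, and the phosphatase gene Dusp2 stood at 435 and 1502 CPM (-1.79). All of these differences rest on 1 pooled set of cells and have no replicate check.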

How the data were processed

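Spleen cells of 2 labelled mouse samples were profiled by droplet-based 3-prime sequencing, and per the labels' protocols the reference was mm10 version 3.0.0. The mapping and counting program is not given in the sources used here. As deposited by the authors, the matrix holds unnormalized UMI counts in whole numbers, pooled over 31017 symbols and 7524 barcodes with 46882070 UMIs. No barcode could be tied to a sample, so the pooled cells were treated as 1 sample, and neither a p-value nor a standard error was computed.

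Groups of cells were set by count rules. The members and the gene lists were chosen with earlier results of these data known. NK-gated cells had at least 2 UMIs of Ncr1 and Klrb1c and at most 1 of the CD3 genes and of the B cell genes. B-gated cells had at least 3 B cell UMIs and no CD3 UMI. UMIs were summed per group and scaled to 1000000 (CPM), so deeper cells weighed more. Ratios used genes with at least 50 UMIs over both groups, with exact conditional binomial 95% intervals, Poisson intervals for levels and Clopper-Pearson intervals for shares, which cover nothing but counting error. Where a group had 0 UMIs, the limit used was 3 UMIs over that group. A gene with few UMIs in 1 group reached the 50-UMI minimum only through the other, so it had to differ.

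Named genes were the 12 highest and 12 lowest ratios past 2-fold against effector-free cells and the 8 of each in the other comparisons, among genes found in at least 10% of the cells of the higher group, plus members of 18 fixed lists. The ratio ranks skipped the genes of the rule, ribosomal protein genes, mitochondrial genes, unnamed gene models and the immunoglobulin, haemoglobin, sex-linked and T cell receptor genes. Of the 326 list genes, 1 was not in the matrix. The values of some list genes are not reported here. Cells were thinned to 1000 UMIs with seed 0. Scrublet (scanpy 1.11.5) called 137 of 6588 cells doublets (2.08%), none of them among the 141 cells, and no doublet was removed. Python 3.11.15, numpy 2.4.6, scipy 1.17.1 and matplotlib 3.10.9 were used, and the ratio step was tested on simulated data.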

Additional observations from a re-analysis of the deposited data

How the results depend on the processing

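No paired analysis was possible because the counts form 1 pooled matrix without replicates, and for the same reason no replicate could be left out. Of the 141 cells, 74 lay within a mitochondrial maximum of 5%. Their share of the CD8 T cells was 63.6% at an effector sum of at least 1, 43.5% at 3 and 36.5% after thinning. Against effector-free cells, 27 genes were lower at that maximum, 40 were higher and 8 lower among genes with at least 200 UMIs, and 966 and 589 without a minimum. Against NK-gated cells, the numbers were 439 and 431 with median-of-ratios size factors, 91 and 184 at 200 UMIs and 891 and 1722 without a minimum. For granzyme-positive over Ccl5-only cells they were 73 and 78 with size factors, 71 and 17 at the lower mitochondrial maximum, 31 and 7 at 200 UMIs and 994 and 609 without a minimum, and 76 genes were lower when at least 2 granzyme UMIs were asked for.

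List medians that changed sign, with a counting interval that left out 0, were homing and adhesion against effector-free cells (-0.22 at 200 UMIs), cell cycle (-0.13 at 200 UMIs) and tissue residency (0.36 without a minimum) against NK-gated cells, and tissue residency between granzyme-positive and Ccl5-only cells (-1.24 at 200 UMIs and -0.19 without a minimum). Single genes that changed sign in this way were Ltb against effector-free cells (0.081 at the lower mitochondrial maximum) and Il2rb between granzyme-positive and Ccl5-only cells (0.050, same setting). Against NK-gated cells they were Actg1 (0.048), S100a6 (0.047) and Srgn (0.073) with size factors, Cx3cr1 (0.13) and Satb1 (-0.040) as a mean of per-cell CPM, Actg1 (0.085) and Satb1 (-0.22) at the lower mitochondrial maximum, Ikzf2 (-0.70) without cells with gamma delta receptor UMIs and Top2a (-0.28 at an effector sum of at least 3 and -0.45 without the cell with most Top2a UMIs). Of all list medians and alternatives, 445 values lay within the counting interval of the reported value (for a list, the medians of its genes' bounds), 54 lay outside it, and 5 changed sign where that interval left out 0. For single genes the numbers were 2445, 242 and 12. Leaving out cells with cell cycle UMIs and asking for at least 6 Ccl5 UMIs, and leaving out the cell with most UMIs of a gene, were chosen after seeing the data. The causes were not tested. Depth limits the genes under 50 UMIs and the ratios that rest on 1 to 3 UMIs in a group.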
